A study of Homo sapiens with 6 samples.

Results

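The 10 structured noncoding RNAs described here are RN7SL1 and RN7SL2 of the 7SL family, RN7SK, the RNase RNAs RMRP and RPPH1, and the spliceosomal RNAs RNU4-1, RNU4-2, RNU5A-1, RNU2-2P and RNU12. They were chosen by name, and each was matched to its Ensembl row in a table of 60676 genes. All 10 had a row, 4 of them had counts (RN7SL1, RNU4-1, RNU4-2 and RNU5A-1), and the other 6 were listed at 0 in all 6 libraries. The libraries held RNA that came down from HEK 293 lysate on glutathione resin, either with GST-Ferry, the FERRY complex fused to the GST tag (3 libraries, GST-Ferry 1 to 3), or with GST alone (3 libraries, GST 1 to 3). FERRY is a RAB5 effector on early endosomes. HEK 293 is an established line derived from human embryonic kidney; the cells were kept in suspension culture, and all 6 pulldowns used lysate of these same cells with no other treatment. Column names give only control or sample with a number, and reading control as GST and sample as GST-Ferry is an assumption from those words.

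Each of these RNAs is the core of a ribonucleoprotein rather than a messenger. 7SL RNA is the scaffold of the signal recognition particle, which brings ribosomes that make secretory proteins to the endoplasmic reticulum, and 7SK RNA holds the transcription elongation factor P-TEFb in an inactive complex in the nucleus. RPPH1 is the RNA of RNase P, which trims precursor tRNAs, and RMRP is the RNA of RNase MRP, which acts on precursor rRNA. U4 RNA pairs with U6 RNA and keeps it inactive until the spliceosome is activated, U5 RNA holds the exon ends during splicing, U2 RNA pairs with the branch point, and U12 RNA takes that role in the minor spliceosome.

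The U4 RNAs are shown with their sequences because near-identical copies can share reads. RNU4-2 and RNU4-1 are both 141 bases long and differ at 4 positions (97.2% identity), which the capitals mark in both. They lie side by side on the minus strand of chromosome 12, at chr12:120291763-120291903 and chr12:120293097-120293237 of GRCh38 as GENCODE 29 places them, and no other gene of that annotation overlaps either one. Both sequences are GENCODE 29 transcripts, written 5′ to 3′ in DNA letters.
RNU4-2: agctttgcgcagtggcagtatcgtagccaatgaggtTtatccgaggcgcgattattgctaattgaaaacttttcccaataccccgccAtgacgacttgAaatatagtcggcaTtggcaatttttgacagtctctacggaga
RNU4-1: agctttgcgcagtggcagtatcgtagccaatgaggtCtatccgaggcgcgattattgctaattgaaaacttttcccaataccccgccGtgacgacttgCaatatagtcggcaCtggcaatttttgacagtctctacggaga

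RNU5A-1 lies within the span of PARP16 on the opposite strand, outside its exons. RN7SL1 lies within the span of the ribosomal protein gene RPS29 on the opposite strand, again outside its exons. RN7SL2 and RN7SL3 are further 7SL copies. Copies of 7SL can share reads as well, and the treatment of such reads is not given, which leaves the split of counts among these rows uncertain.

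The GST-Ferry libraries held 6532665, 2671831 and 2454538 counts, and the GST libraries 9388865, 10466520 and 7390346. Protein-coding genes took 91.7% to 94.2% of counts with GST-Ferry and 87% to 91.1% with GST. GST 3 stood apart from the other libraries in genes typed as snRNA, which took 0.111% of its counts, against 0.0165% to 0.0192% in the GST-Ferry libraries and 0.0169% and 0.0224% in GST 1 and GST 2. In genes typed as misc_RNA, the type of RN7SL1, GST 3 stood apart too, with 3.42% of its counts against 0.211% to 0.888% elsewhere. In genes typed as snoRNA it did not: they took 0.0815%, 0.072% and 0.0997% of counts in GST-Ferry 1, 2 and 3, and 0.0494%, 0.056% and 0.114% in GST 1, 2 and 3. Of 5 genes taken as markers of this line, NEFL had 116 CPM or more and LIN28B 104 CPM or more in every library, and PAX2, NEFM and INA were detected in all 6. The leukocyte gene PTPRC and the hepatocyte gene ALB were below 0.4 CPM throughout, whereas the collagen gene COL1A1, taken as a marker of another cell type, had 50.9 to 57.4 CPM with GST-Ferry and 18.3 to 47.2 CPM with GST.

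None of the 4 counted RNAs differed between the baits by the test over all genes. Their GST-Ferry levels lay within the range of the GST libraries in every case, with GST 3 at the upper end of that range and GST 1 at the lower end. In all, 92 of 15546 tested genes were enriched with GST-Ferry (0.592%) and 5 were depleted (0.0322%) at an adjusted p under 0.05 by edgeR's quasi-likelihood F-test, Benjamini-Hochberg adjusted. Unadjusted p was under 0.05 for 2 of the 4, RNU4-1 and RNU5A-1, both lower, in edgeR's quasi-likelihood test, against 19.3% of all tested genes in either direction and 8.05% as lower. Neither DESeq2 nor limma-voom called any of the 4. No library of the input lysate was used, and values are relative to each library's total, so less of these RNAs on a bait and more of all other RNAs cannot be told apart.

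RN7SL1 was among the most abundant rows of the table. It had 54275, 15923 and 8684 counts in GST-Ferry 1, 2 and 3, and 17443, 41771 and 238607 counts in GST 1, 2 and 3. Normalised to library size with TMM factors (CPM), this was 7941, 6334 and 3777 CPM with GST-Ferry, against 1695, 3806 and 35150 CPM with GST. The GST-Ferry libraries lay within 2.1-fold of each other and all above GST 1, and GST 3 lay above every other library. The share of RN7SL1 in its library was 0.831%, 0.596% and 0.354% for GST-Ferry 1, 2 and 3, and 0.186%, 0.399% and 3.23% for GST 1, 2 and 3, and it ranked between 2 and 9 among all genes of its library. The means were 6020 ± 2100 CPM with GST-Ferry and 13600 ± 18700 CPM with GST (SD, n = 3 each), and the SD with GST exceeded the mean. The log2 fold change was -1.17 ± 0.78 (SE; 95% interval -2.86 to 0.52; adjusted p = 0.43 by edgeR's quasi-likelihood F-test, Benjamini-Hochberg adjusted).

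The direction for RN7SL1 was not the same in all fits. With all 6 libraries, limma-voom put it near 0 (-0.10 ± 0.79, adjusted p = 0.967). Without GST 3 the log2 fold change was 1.11 ± 0.36, which did not pass (adjusted p = 0.0716 by edgeR's quasi-likelihood test), in a fit that called 4.45% of tested genes enriched. GST-Ferry 1 was another library that earlier results of these data, not shown here, had placed apart. Without both GST 3 and GST-Ferry 1 the log2 fold change of RN7SL1 was 0.88 ± 0.30. There it passed as higher with GST-Ferry (adjusted p = 0.0448 by edgeR's quasi-likelihood test), in a fit that called 11.5% of all tested genes enriched. GST 3 was the highest library for RN7SL1, so leaving it out raises the fold change by itself. The choice of libraries came from these same data, so this call is a description only. With genes of low counts left in the fit, the call went the other way (-1.21 ± 0.23, adjusted p = 9.98e-05 by edgeR's quasi-likelihood test), although the groups overlapped. That fit called 0.989% of 32648 genes depleted. The fold change was close to that of the main fit (-1.17 ± 0.78), and it was the SE that was smaller.

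The U4 RNAs had far fewer counts and followed one another closely. RNU4-2 had 136, 99 and 138 counts with GST-Ferry, against 101, 403 and 2815 counts with GST, or 19.9, 39.4 and 60 CPM with GST-Ferry and 9.82, 36.7 and 414.7 CPM with GST. GST-Ferry 2 was close to GST 2, GST 1 was the lowest library and GST 3 was the highest by a wide margin. RNU4-1 had 47, 33 and 42 counts with GST-Ferry and 37, 163 and 1086 counts with GST, which gave 6.88, 13.1 and 18.3 CPM with GST-Ferry and 3.596, 14.85 and 160 CPM with GST. The libraries stood in the same order for both U4 copies except that GST 2 lay above GST-Ferry 2 for RNU4-1 and below it for RNU4-2.

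RNU4-2 averaged 39.8 ± 20.1 CPM with GST-Ferry and 154 ± 226 CPM with GST (SD, n = 3 each), and RNU4-1 averaged 12.8 ± 5.70 CPM with GST-Ferry and 59.5 ± 87.2 CPM with GST. By edgeR's quasi-likelihood test neither passed: the log2 fold change was -1.98 ± 0.94 for RNU4-2 (95% interval -4.00 to 0.04, adjusted p = 0.267) and -2.29 ± 0.98 for RNU4-1 (-4.40 to -0.18, unadjusted; adjusted p = 0.228). Counted together as 1 feature, the U4 copies gave -2.04 ± 0.93 (adjusted p = 0.25). With limma-voom the values were -0.60 ± 1.04 for RNU4-2 and -0.84 ± 1.14 for RNU4-1 (adjusted p = 0.8 and 0.742). Without GST 3 the values turned to 0.68 ± 0.43 for RNU4-2 (adjusted p = 0.355) and 0.33 ± 0.47 for RNU4-1 (adjusted p = 0.71). Without GST 3 and GST-Ferry 1 they were 1.08 ± 0.37 for RNU4-2, which passed as higher (adjusted p = 0.047), and 0.75 ± 0.44 for RNU4-1 (adjusted p = 0.249). That fit called 11.5% of all tested genes enriched. GST 3 was the highest library for both U4 RNAs, so leaving it out raises their fold changes by itself. Without the filter on low counts both passed as lower (adjusted p = 8.19e-14 and 2.14e-14), although their groups overlapped. The fit without the filter called 0.989% of 32648 genes depleted.

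Within each library the split of reads between the U4 copies was nearly constant. RNU4-2 took 74.3%, 75% and 76.7% of U4 counts in GST-Ferry 1, 2 and 3, and 73.2%, 71.2% and 72.2% in GST 1, 2 and 3. The groups did not overlap, but exact 95% binomial intervals did: the widest, in GST-Ferry 2, ran from 66.7% to 82.1%, and the narrowest, in GST 3, from 70.7% to 73.6%. These intervals cover counting error only. A two-sided exact permutation test gave p = 0.1, the smallest that 3 against 3 libraries allow (adjusted p = 0.2 over 4 within-library shares). The treatment of reads that match both copies is not stated in the labels or the table, which leaves the split itself uncertain.

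RNU5A-1 was the one counted RNA that stayed lower with GST-Ferry in every refit, though it did not pass the test. It had 30, 10 and 12 counts with GST-Ferry, against 32, 134 and 683 counts with GST, or 4.39, 3.98 and 5.22 CPM with GST-Ferry and 3.11, 12.2 and 100.6 CPM with GST. The GST-Ferry libraries were close together, all of them above GST 1 and below GST 2 and GST 3. The means were 4.53 ± 0.632 CPM with GST-Ferry and 38.6 ± 53.9 CPM with GST (SD, n = 3 each). By edgeR's quasi-likelihood test the log2 fold change was -3.08 ± 0.96 (SE; 95% interval -5.16 to -0.99, unadjusted; adjusted p = 0.127). It was -1.64 ± 1.23 with limma-voom (adjusted p = 0.514). It was -0.80 ± 0.46 without GST 3 (adjusted p = 0.299) and -0.75 ± 0.54 without GST 3 and GST-Ferry 1 (adjusted p = 0.366). Without GST 1, the lowest library, it passed as lower (-3.65 ± 0.61, adjusted p = 0.0302 by edgeR's quasi-likelihood test), in a fit that called 0.122% of tested genes depleted. GST 1 was the only GST library below the GST-Ferry libraries, so leaving it out sets the groups apart by itself. That call is therefore a description only. Without the filter on low counts RNU5A-1 passed as lower (-3.12 ± 0.31, adjusted p = 1.23e-19 by edgeR's quasi-likelihood test), although its groups overlapped. That fit called 0.989% of 32648 genes depleted. Its fold change was close to that of the main fit (-3.08 ± 0.96), and it was the SE that was smaller.

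**Figure D1:**
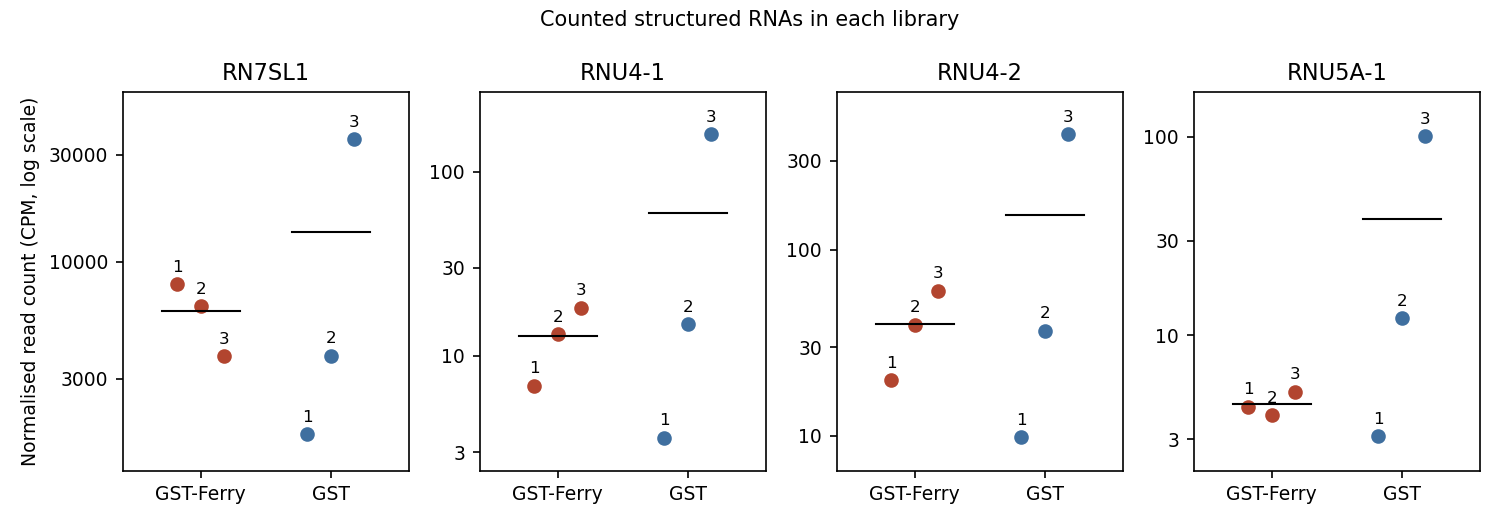
CPM of the 4 counted RNAs in each library on a log axis, with GST-Ferry libraries in red at left and GST libraries in blue at right; digits are replicate numbers and bars are group means (n = 3 each). GST 3 is the highest library in every panel (35150 CPM for RN7SL1, 414.7 CPM for RNU4-2) and GST 1 the lowest.

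GST 3 was set against the mean of GST 1 and GST 2 to place these values among all genes. Its CPM was 12.8 times that mean for RN7SL1, 17.3 times for RNU4-1, 17.8 times for RNU4-2 and 13.1 times for RNU5A-1, while the median of 15546 tested genes was 0.96. Counting the RNA itself, 8 genes had a ratio as high as that of RN7SL1, 3 that of RNU4-1, 2 that of RNU4-2 and 7 that of RNU5A-1. Against the same mean of GST 1 and GST 2, the GST-Ferry mean was 2.188 times as high for RN7SL1, 1.71 times for RNU4-2, 1.38 times for RNU4-1 and 0.591 times for RNU5A-1. GST 1 and GST 2 themselves differed: GST 2 was above GST 1 for all 4 RNAs.

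**Figure D2:**
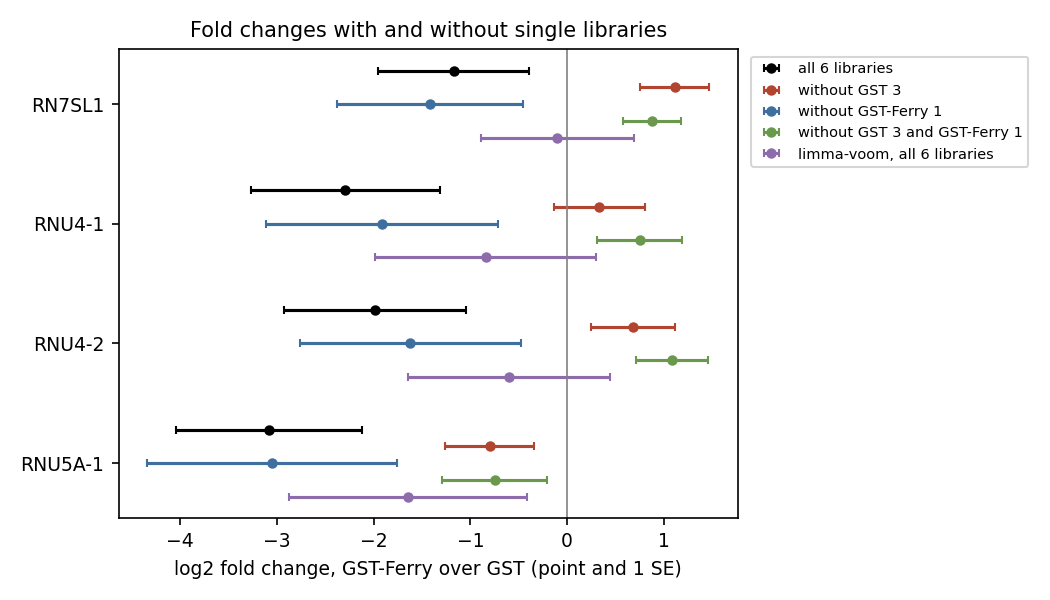
Log2 fold changes of the 4 counted RNAs, GST-Ferry over GST, as points with 1 SE, from all 6 libraries (edgeR and limma-voom) and from edgeR fits that leave out GST 3, GST-Ferry 1 or both. RN7SL1, RNU4-1 and RNU4-2 lie below 0 with all libraries and above 0 without GST 3 (1.11, 0.33 and 0.68), and RNU5A-1 lies below 0 throughout.

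U5 was also set against U4 within each library, a share that does not depend on scaling between libraries and that was chosen after the values were seen. RNU5A-1 made up 18.1%, 9.17% and 8% of the summed RNU5A-1 and RNU4-2 counts in GST-Ferry 1, 2 and 3, against 24.1%, 25% and 19.5% in GST 1, 2 and 3. All GST-Ferry libraries were below all GST libraries, with means of 11.7% ± 5.51 and 22.8% ± 2.91 (SD, n = 3 each). The two-sided exact permutation p was 0.1, the smallest this design allows (adjusted p = 0.2 over 4 shares). In GST-Ferry 1 the exact 95% interval, 12.5% to 24.8%, took in the values of GST 1 and GST 3. With 4 tested U5 rows (RNU5A-1, RNU5B-1, RNU5D-1 and RNU5F-1) set against both U4 copies, the groups overlapped. The U5 share was then 28.8%, 22.4% and 17.1% with GST-Ferry and 39.5%, 34.8% and 27.8% with GST (exact permutation p = 0.2, two-sided, adjusted p = 0.267).

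Compared per length, RN7SL1 had the most counts of the counted RNAs in every library. Whether counts of RNAs this short follow their abundance was not tested. RN7SL1 had 2656, 2118 and 1263 CPM per 100 bases with GST-Ferry and 567, 1273 and 11760 CPM per 100 bases with GST. RNU4-2 had 14.1, 27.9 and 42.6 CPM per 100 bases with GST-Ferry and 6.96, 26 and 294 CPM per 100 bases with GST, and RNU4-1 lay between 4.88 and 12.95 with GST-Ferry and between 2.55 and 113.5 with GST. RNU5A-1 had 3.43 to 4.50 CPM per 100 bases with GST-Ferry and 2.68 to 86.7 with GST. The level of RNU5A-1 was below that of RNU4-1 in all 3 GST-Ferry libraries and in GST 3 (86.7 against 113.5), and close to it in GST 1 and GST 2 (2.68 against 2.55, and 10.5 in both).

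The 6 RNAs at 0 were RN7SL2, RN7SK, RMRP, RPPH1, RNU2-2P and RNU12. A count of 0 allows, at 3 counts, up to 0.439, 1.19 and 1.3 CPM in GST-Ferry 1, 2 and 3 and up to 0.292, 0.273 and 0.442 CPM in GST 1, 2 and 3, as a limit on counts assigned to these rows and for counting error only. No fold change can be given for them. In GENCODE 29, 5 of the 6 lie wholly inside exons of another gene on the same strand that is also a row of the table. RN7SK (chr6:52995621-52995948) lies inside a second 7SK entry, and RMRP (chr9:35657754-35658017) inside a second RMRP entry; both second entries were also at 0 in all libraries. RPPH1 (chr14:20343075-20343407) lies inside ENSG00000259001, which was at 0 too. RNU12 (chr22:42615244-42615393) lies inside a longer noncoding gene with 5, 0 and 0 counts in GST-Ferry 1, 2 and 3 and 3 counts in each GST library. RNU2-2P (chr11:62841619-62841809) lies inside exons of the protein-coding gene WDR74, a ribosome assembly factor, which had 235, 108 and 135 counts with GST-Ferry and 261, 337 and 165 counts with GST.

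RN7SL2 (chr14:49862550-49862849, minus strand) was the exception, since it lies within the span of a long noncoding gene, ENSG00000282885, but outside its exons in this annotation. Reads that match both RN7SL2 and RN7SL1 may have been assigned elsewhere or left out, so its 0 does not show that this copy was absent. None of the 4 counted RNAs lies inside same-strand exons of another row of the table that GENCODE 29 places. That annotation typed 58503 of 60676 rows, and overlap with the remaining rows could not be checked. RN7SL1 is overlapped in GENCODE 29 by one further entry that is not among the table's rows. The same pattern held among all rows of short structured types (snoRNA, scaRNA, snRNA, misc_RNA, ribozyme and vault RNA). Of 358 such rows with at least 90% of their length inside same-strand exons of another row, 353 were at 0 in all libraries (98.6%) and 0 had 100 counts or more in total. Of the other 4771 rows, 3230 were at 0 (67.7%) and 50 had 100 counts or more. How the counting treated reads that fall in 2 genes is not given in the sources used here, and its part in the zeros was not tested.

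**Figure D3:**
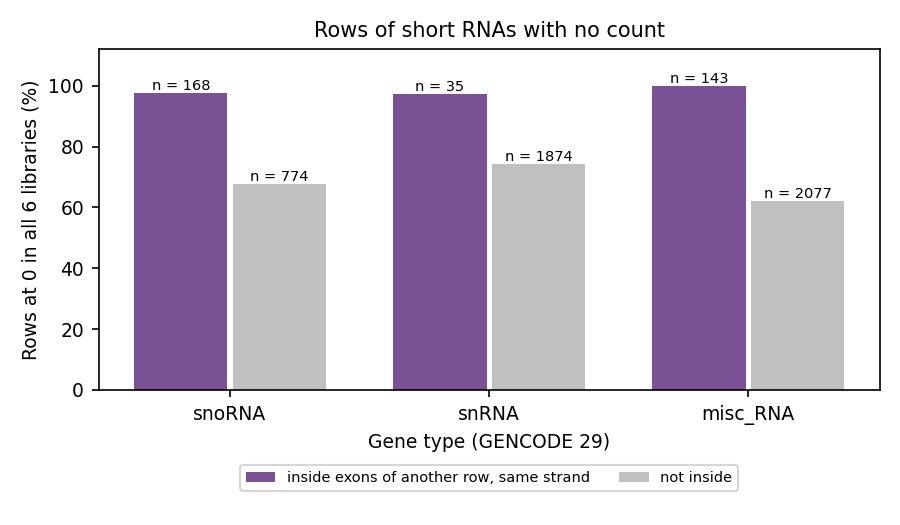
Share of rows listed at 0 in all 6 libraries for 3 gene types, for rows that lie inside same-strand exons of another row (purple) and all others (grey); n is the number of rows. The purple bars stand at 97.1% to 100% and the grey bars at 62.1% to 74.1%.

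Among related RNA rows none was called by edgeR, DESeq2 or limma-voom. RN7SL3, the most abundant other 7SL row, had 298, 276 and 189 CPM with GST-Ferry and 71.2, 172 and 1439 CPM with GST, with a log2 fold change of -1.14 ± 0.75 (adjusted p = 0.424 by edgeR's quasi-likelihood F-test, Benjamini-Hochberg adjusted). It took 3.62%, 4.18% and 4.77% of the summed RN7SL1 and RN7SL3 counts with GST-Ferry and 4.03%, 4.33% and 3.93% with GST, ranges that overlap (exact permutation p = 0.8, two-sided; adjusted p = 0.8). Of 971 further 7SL and 7SK rows, 512 were at 0 and 20 passed the filter on low counts, with 15 below 0 and 5 above 0, a median log2 fold change of -0.55 and 1 row at an unadjusted p under 0.05. Over all 15546 tested genes, 8119 were below 0 and 7427 above 0, with a median of -0.03.

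Of 45 other spliceosomal and U7 rows, 13 were at 0 and 8 were tested. The fold change was below 0 for all 8 (median log2 value -1.66), and 6 had an unadjusted p under 0.05, as did 8.05% of all tested genes in that direction. RNVU1-31, a variant U1 row and the most abundant, had 27.4, 47.3 and 28.3 CPM with GST-Ferry and 30.2, 41.1 and 188.7 CPM with GST (log2 fold change -1.34 ± 0.55, adjusted p = 0.21 by edgeR's quasi-likelihood test). RNU5B-1 and RNU5D-1, further U5 copies chosen here after their values were seen, had 1.02 to 3.98 and 1.76 to 5.22 CPM with GST-Ferry and 1.07 to 37.6 and 1.07 to 29 CPM with GST, with GST 3 the highest for both. Not all 8 followed GST 3. RNVU1-27, a variant U1 row also chosen after its values were seen, had 2.49, 1.19 and 4.78 CPM with GST-Ferry and 8.75, 6.29 and 5.16 CPM with GST, so the groups did not overlap and GST 3 was the lowest GST library (log2 fold change -1.30 ± 0.44, adjusted p = 0.146 by edgeR's quasi-likelihood test). RNVU1-15 and RNVU1-34, at 31 counts or fewer in every library, also had GST-Ferry wholly below GST, as did 12.2% of all tested genes, and GST 3 was the lowest GST library for RNVU1-15 and the highest for RNVU1-34. A row that passed the filter only through the GST libraries had to be lower with GST-Ferry, so these counts are a description only. Among other structured RNAs only SNORD3A and RNY1 were tested of 11 rows. SNORD3A, the U3 RNA of early rRNA processing and the more abundant, had 459, 477 and 639 CPM with GST-Ferry and 201, 235 and 658.6 CPM with GST (log2 fold change 0.52 ± 0.37, adjusted p = 0.456 by edgeR's quasi-likelihood test).

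**Figure D4:**
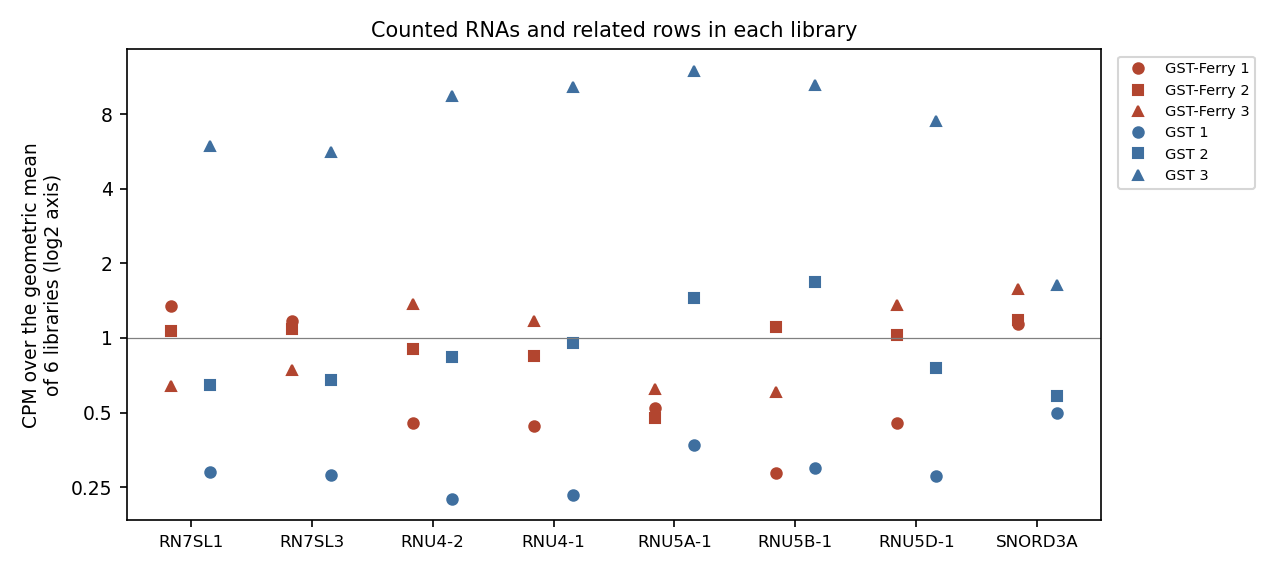
CPM of the counted RNAs and of 4 related rows in each library, divided by the RNA's geometric mean over the 6 libraries, on a log2 axis; red symbols are GST-Ferry and blue symbols GST libraries. GST 3 lies above all other libraries for the 7SL, U4 and U5 rows, and for SNORD3A it lies beside GST-Ferry 3 (658.6 and 639 CPM).

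The mRNAs of proteins that bind these RNAs gave 1 call by edgeR's quasi-likelihood test, and the other lists of such proteins gave none. For comparison, 19.3% of all tested genes had an unadjusted p under 0.05, and DESeq2 called 3.43% enriched and 1.14% depleted. Of the 8 mRNAs for signal recognition particle proteins and their receptor, all tested, 5 were above 0 and 3 below, with a median log2 fold change of 0.07, no call and 2 at an unadjusted p under 0.05; SRP9, the most abundant, had 222 ± 19.8 CPM with GST-Ferry and 259 ± 161 CPM with GST (SD, n = 3 each). Of 7 mRNAs for 7SK and P-TEFb proteins, 3 were above 0 and 4 below (median -0.13, no call, 2 at an unadjusted p under 0.05), and cyclin T1, CCNT1, had 101 ± 12 CPM with GST-Ferry and 124 ± 53.9 CPM with GST. Of 10 tested mRNAs of RNase P and MRP proteins, 9 were above 0 (median 0.23, no call by edgeR, 3 at an unadjusted p under 0.05, 2 enriched by DESeq2), and RPP30 had 56.2 ± 16 CPM with GST-Ferry and 50.1 ± 9.90 CPM with GST. The list for snRNA gene transcription and the La protein had 4 of 11 above 0 (median -0.04, no call, 3 at an unadjusted p under 0.05), and La itself, SSB, which binds the ends of RNA polymerase III transcripts, had 203 ± 20.2 CPM with GST-Ferry and 180 ± 27.5 CPM with GST.

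Of 33 mRNAs for U2, U4/U6, U5 and U11/U12 proteins, 25 were above 0 with a median log2 fold change of 0.35, and 1 was enriched. Over all 15546 tested genes, 7427 were above 0. Unadjusted p by edgeR's quasi-likelihood test was under 0.05 for 12 of the 33, against 19.3% of all tested genes. The enriched mRNA was SF3B5, a small subunit of the SF3b complex that U2 carries. SF3B5 had 89.1, 97.5 and 98.7 CPM with GST-Ferry and 45.5, 54.9 and 48 CPM with GST, so the groups did not overlap (14.9% of all tested genes had GST-Ferry wholly above GST). Its log2 fold change was 0.94 ± 0.19 (adjusted p = 0.0477 by edgeR's quasi-likelihood F-test, Benjamini-Hochberg adjusted). DESeq2 called 1 member of the list enriched and 1 depleted, and limma-voom called 0. Over all tested genes, 0.592% were enriched by edgeR, and DESeq2 called 3.43% enriched and 1.14% depleted.

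The genes most like the 4 counted RNAs were found by Pearson correlation over the 6 libraries with the mean standardised log2 CPM of those RNAs, among 10976 other genes of at least 10 CPM. They were RPS29, ZIC5, ZNF557, ZBTB21 and API5, with r from 0.987 to 0.993. All points share the 6 libraries, and GST 3 was the highest for each of the 5 genes. RPS29 had 96.4, 124 and 121 CPM with GST-Ferry and 62.3, 120 and 334.4 CPM with GST, and RN7SL1 lies within its span on the opposite strand. The other genes varied less, as ZIC5 had 27.9 to 29.1 CPM with GST-Ferry and 23.4 to 45.5 CPM with GST. None of the 5 passed the test by edgeR's quasi-likelihood test, with adjusted p between 0.475 and 0.74.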

How the data were processed

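A single table of raw counts, by Ensembl gene and for 6 libraries, was deposited by the authors. Per the labels' protocols, recovered RNA was depleted of rRNA and made into strand-specific libraries. The build GRCh38.p13, STAR 2.5.2b and bcl2fastq 2.19.1 are named per the submitters' processing notes. The counting program, annotation release, strand setting and treatment of shared reads are not given in the sources used here. Symbols came from a table of gene names, and types, coordinates, exons and sequences from GENCODE 29 (GRCh38), which typed 58503 of 60676 rows.

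From these counts, genes were filtered with filterByExpr (minimum count 10, minimum total 15; 15546 left) and tested with edgeR 4.0.16 (R 4.3.3): TMM scaling, quasi-likelihood test, two-sided, no covariate, Benjamini-Hochberg adjustment over all tested genes, threshold 0.05. SE is the log2 fold change over the root of F. CPM uses TMM-scaled totals. limma 3.58.1 (voom) and DESeq2 1.42.0 were alternatives, with other scalings, no filter, the replicate number as a block and libraries left out. The procedure was tested on simulated data. Identity between the U4 copies came from a global alignment (Biopython 1.88), and figures from matplotlib 3.10.9. The sequences of the other counted RNAs are not reported here.

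The members and lists were chosen with earlier results of these data known. Some genes outside the members are named as the most abundant or called members of their list, by likeness, as cell markers or for their position. Others, among the spliceosomal rows and the further short RNAs, were named for their values after these were seen. Those rows are a selection by value and a description only. The labels do not say that replicates were separate cultures, and a p-value reflects just the spread among these libraries, possibly technical. Same-numbered libraries did not deviate together throughout, so numbers were not taken as pairs.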

Additional observations from a re-analysis of the deposited data

How the results depend on the processing

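Against 97 genes called over all genes by edgeR's quasi-likelihood test, the count was 11 with RLE size factors, 7 with library sizes alone, 6 with scaling on protein-coding genes, 14 with limma-voom, 711 with DESeq2, 744 with no filter on low counts and 2746 without GST 3 and GST-Ferry 1. Leaving out 1 library at a time gave 0 to 1259. The 0 came without GST-Ferry 2, where unadjusted p was under 0.05 for 910 higher and 794 lower genes and no other tool was run; without GST-Ferry 3 or GST 2 there were 3, and the 1259 came without GST 3.

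The log2 fold change of RN7SL1 ran from -1.71 to 1.11 over the fits that left out 1 library, RNU4-1 from -2.87 to 0.33, RNU4-2 from -2.56 to 0.68, RNU5A-1 from -3.65 to -0.80 and the summed U4 copies from -2.62 to 0.61. Without GST 3 it was 1.11 for RN7SL1, 0.33 for RNU4-1, 0.68 for RNU4-2 and 0.61 for the summed U4 copies. Without GST 3 and GST-Ferry 1 together it was 0.88, 0.75, 1.08 and 1.00. RN7SL1 with RN7SL2 gave the values of RN7SL1 alone throughout, since RN7SL2 was at 0. All 7SL rows summed, an alternative chosen after seeing the data, gave -1.16 in all libraries, -1.68 to 1.09 with 1 library left out, 1.09 without GST 3, 0.87 without GST 3 and GST-Ferry 1 and 0.13 with the replicate block. With no filter on low counts the values were -1.21 for RN7SL1, -2.33 for RNU4-1, -2.03 for RNU4-2, -3.12 for RNU5A-1 and -2.10 for the summed U4 copies, all called as lower; the cause was not tested. The other scalings and DESeq2 kept direction and side of the threshold for all 4 RNAs, and limma-voom did too, with -0.10 for RN7SL1, -0.84 for RNU4-1, -0.60 for RNU4-2 and -1.64 for RNU5A-1.

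With the replicate number as a block, 195 genes were called (167 enriched, 28 depleted). RN7SL1 turned to 0.14 with all 6 libraries in the fit, RNU4-1 was at -0.89, RNU4-2 at -0.55 and RNU5A-1 at -1.84, and none of the 4 was called. Deviations of same-numbered libraries correlated at 0.25, 0.08 and -0.13, and not every library correlated best with its own number, so they share only a number. The 6 RNAs at 0 gave no value under any alternative. RNU5A-1 rests on 10 to 30 counts in the GST-Ferry libraries.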

Other observations

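RNU6ATAC, RNU4ATAC, RNY3 and RNY1, further short RNAs at low counts, had their highest count in GST 3, and were named for it. Not all short RNAs did: RNU1-1 had 4 counts in both GST 2 and GST 3, and VTRNA1-1 had 2 counts in GST 2 and 1 in GST 3. These are raw counts, and GST-Ferry 2 and 3 held fewer counts in total (2671831 and 2454538) than any GST library. The minor-spliceosome RNA RNU6ATAC had 9, 3 and 0 counts in GST-Ferry 1, 2 and 3 and 11, 14 and 115 counts in GST 1, 2 and 3. RNU4ATAC had 0, 0 and 2 counts with GST-Ferry and 3, 5 and 19 counts with GST. The Y RNA RNY3, a partner of the Ro protein, had 3, 0 and 0 counts with GST-Ferry and 1, 2 and 14 counts with GST, and RNY1 had 15, 2 and 6 counts with GST-Ferry and 4, 12 and 105 counts with GST. The canonical rows RNU1-1 and RNU6-1 held at most 4 counts in any library, and RNU2-1 and RNU7-1 were at 0 in all 6. The telomerase RNA TERC had 0, 0 and 1 counts with GST-Ferry and 2 counts in each GST library.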
